A study of Mus musculus with 12 samples.

Results

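A set of 8 kinases from the Src and Tec families, their regulator Csk included, was followed in mouse CD8+ T cells: Fyn and Txk of T cells, Lyn, Blk and Fgr of B and myeloid cells, the broadly expressed Src and Yes1, and Csk itself, which restrains the Src kinases. They are 8 of the 24421 gene symbols in the count tables and were taken by name. The set was chosen by kinship to Lyn, itself selected on its higher counts with the inhibitor in these 12 libraries, so the difference between the groups helped to choose it, and the members' differences are given below as a description, without p-values. The cells were splenic CD8+ T cells of C57BL/6 mice. The control group (DMSO, 6 libraries) received the solvent and the other group (EZH2i, 6 libraries) an inhibitor of EZH2, the enzyme that places the repressive methyl mark on lysine 27 of histone H3. The inhibitor by name, its dose and duration, the age of the mice and the place of treatment (culture or animal) are not stated in the labels.

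Src family kinases are anchored on the inner face of the plasma membrane and phosphorylate the signalling motifs of immune receptors. Lck and Fyn do this for the T cell receptor, whereas Lyn, Blk and Fgr are known for work downstream of B cell and myeloid receptors. Csk holds them in check by phosphorylating a tyrosine in their tail, which folds the kinase shut, and the phosphatase CD45 removes that phosphate. Tec family kinases such as Txk act one step later, on phospholipase C gamma. Lyn is set apart by its additional role in inhibitory signalling, through receptors that recruit the phosphatases SHP-1 and SHIP-1.

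The target of Csk can be read in the end of the coding sequences, which is shown because it also splits the members into a pair of tail types. Each line is the last 48 coding bases before the stop codon, in the coding direction, from GENCODE M21 transcripts on GRCm38, with the codon of the last tyrosine in capitals.
Lyn: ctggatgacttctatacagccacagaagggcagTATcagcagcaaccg
Blk: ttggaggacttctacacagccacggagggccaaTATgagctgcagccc
Fyn: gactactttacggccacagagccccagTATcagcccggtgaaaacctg
Yes1: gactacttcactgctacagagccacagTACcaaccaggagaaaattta
Src: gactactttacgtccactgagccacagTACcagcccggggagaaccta
Fgr: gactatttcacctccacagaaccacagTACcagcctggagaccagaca
All 6 stretches lie in the last exon. Lyn is at chr4:3789894-3789941 on the plus strand, Blk at chr14:63373395-63373442 on the minus strand, Fyn at chr10:39563922-39563969, Yes1 at chr5:32684709-32684756, Src at chr2:157469911-157469958 and Fgr at chr4:133000293-133000340, these 4 on the plus strand. The tyrosine codon was the fifth from the end in Lyn and Blk and the seventh in Fyn, Yes1, Src and Fgr. With the ends aligned and no gaps, Lyn matched Blk at 37 of 48 bases, and Fyn matched Src at 41. Over all annotated transcripts, no window of 75 bases, the read length in the labels, was shared exactly between any of the 8 members, Lck and Tec. The search covered exact matches only, so reads placed with mismatches were not examined.

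Library totals ran from 17215483 to 31206228 counts. Levels are given as CPM, read counts scaled to a common library size with TMM factors. Whether each library is its own mouse is not stated, so p-values measure only the spread between libraries, which may be technical. The libraries numbered 6 stood apart from the others in both groups, and their values are named where they matter. The CD8 T cell markers Cd3e, Cd3d, Cd3g, Cd8a, Cd8b1, Thy1 and Cd2 were abundant in every library, together at 3890 to 6157 CPM, with 3 of the 7 called lower in EZH2i and 0 higher. Ezh2 itself stood at 278 ± 29.4 CPM in DMSO and 234 ± 26.6 in EZH2i (adjusted p = 0.0833, edgeR), which does not check the labels, since the inhibitor acts on the enzyme. In such bulk libraries, fewer cells that express a gene and less RNA per cell cannot be told apart.

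The B and myeloid kinases Lyn and Fgr and the broad kinase Yes1 were higher with EZH2i, while Fyn, the abundant T cell member, stood at mean levels of 308 and 309 CPM. Gene positions below are on GRCm38, from GENCODE M21. Of the 8 members, 6 passed the filter on low counts and Blk and Src did not. With an adjusted p under 0.05 over all 11727 tested genes, 3 of the 6 were called higher (Lyn, Yes1 and Fgr) and 0 lower, against 13.3% of all tested genes called higher and 6.05% lower by edgeR's quasi-likelihood test. At an unadjusted p under 0.05 the members' counts were 4 higher and 1 lower, for which no count over all genes is given. DESeq2 called the same numbers of members as edgeR, 3 and 0, and over all 11727 genes 1756 higher and 1125 lower. Because this contrast helped to choose the members, nothing is read from these counts. The median log2 fold change of the 6 was 0.49, and that of all tested genes -0.01.

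Lyn was measured at 1.67 CPM in the lowest DMSO library, 1.85 at the median and 2.43 in the highest, and in EZH2i at 6.37, 7.81 and 8.93 CPM. Every EZH2i library lay above every DMSO library, by a wide gap. The mean rose from 1.96 ± 0.300 to 7.78 ± 0.862 CPM (SD, n = 6 libraries each), a 3.94-fold difference with a log2 fold change of 1.98 (SE 0.13). Lyn held 28 to 66 counts per DMSO library and 149 to 260 per EZH2i library. Within number 6 the difference was as large as elsewhere, at 1.67 against 8.05 CPM. Lyn lies at chr4:3678115-3813122 on the plus strand. Of its 4065 distinct windows of 75 bases, 411 also occur in the annotated pseudogene Gm11787, and 175 in Gm26857, an annotated gene on the opposite strand. Neither symbol is in the count tables, and the strand setting of the counting is not given, so a part of the Lyn counts may belong to them.

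Fgr, a kinase known from neutrophils and monocytes, stood at 1.91, 2.68 and 3.14 CPM in DMSO (lowest, median, highest) and at 3.56, 4.37 and 4.78 CPM in EZH2i. The groups did not overlap. The means were 2.59 ± 0.566 and 4.18 ± 0.505 CPM, a log2 fold change of 0.69 (SE 0.16). Fgr lies at chr4:132974095-133001910, on the same chromosome as Lyn, and shared no 75-base window with any other annotated gene. Lyn and Fgr were the 2 tested members whose groups did not overlap, where 7.5% of all tested genes were higher and 2.74% lower without overlap.

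Blk, a kinase of B cells, was close to absent. It had 8 counts in DMSO, in 3 of 6 libraries with at most 4 each, and 20 in EZH2i, in 6 of 6, with at most 6 in a library. The ratio of summed counts scaled to depth was 2.09, with an exact 95% interval of 0.881 to 5.48 that covers counting error only. The interval includes equal levels, so no difference was detectable at this depth. Blk lies at chr14:63372836-63417037.

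Yes1, a broadly expressed kinase close to Src, stood at 2.52, 3.17 and 5.60 CPM in DMSO and at 5.51, 6.75 and 9.66 CPM in EZH2i. The groups met at a single library, since DMSO library 6 lay just above the lowest EZH2i library. In both groups library 6 was the highest, and within that number Yes1 also rose, from 5.60 to 9.66 CPM. The means were 3.45 ± 1.10 and 7.04 ± 1.46 CPM, a log2 fold change of 1.04 (SE 0.20), which ran from 0.93 (EZH2i library 6 left out) to 1.22 (DMSO library 6 left out). Yes1 lies at chr5:32611171-32687057, and 561 of its 7578 windows of 75 bases also occur in Gm10461 on the opposite strand, a symbol not in the count tables.

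Src, the founding member of the family, was nearly silent in these cells. It had 1 to 10 counts per DMSO library (31 in all) and 3 to 26 per EZH2i library (65 in all). The depth-scaled ratio was 1.75, with an exact 95% counting interval of 1.13 to 2.78. EZH2i library 6 held 26 of the 65 counts, and without both libraries numbered 6 the ratio was 1.49, with an interval of 0.871 to 2.58 that includes equal levels. Src lies at chr2:157418444-157471862.

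Fyn, which works beside Lck at the T cell receptor and with the adaptor SAP, was among the abundant kinases. It stood at 290, 309 and 319 CPM in DMSO and at 291, 307 and 331 CPM in EZH2i. The ranges lay on top of each other, and Fyn was higher in EZH2i for 3 of the 6 library numbers and lower for 3. The means were 308 ± 10.7 and 309 ± 15.2 CPM, and the log2 difference was 0.00 (SE 0.053). It was not called under any of 20 alternative settings, in which the log2 fold change ran from -0.02 to 0.07. Fyn lies at chr10:39368855-39565381.

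Txk, a Tec family kinase of T cells, stood at 96.8, 122 and 132 CPM in DMSO and at 98.9, 156 and 160 CPM in EZH2i. The 5 other EZH2i libraries lay between 145 and 160 CPM, above every DMSO library, and EZH2i library 6 alone lay among the controls. The means were 118 ± 13.3 and 146 ± 23.6 CPM, and the log2 difference was 0.30 (SE 0.12), which was not called. It was called higher with the replicate number as a block (log2 fold change 0.29), with library totals alone as the scale (0.37), without EZH2i library 6 (0.39) and without both libraries numbered 6 (0.34). Within number 6 the difference was 0.03 on the log2 scale of CPM plus 0.5, against a median of 0.32 over the 6 numbers. Txk lies at chr5:72695978-72752777.

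Csk, the brake on all the Src kinases, was the member with the highest level and went slightly the other way. It stood at 335, 373 and 414 CPM in DMSO and at 322, 334 and 366 CPM in EZH2i. The ranges overlapped, yet Csk was lower in EZH2i for 6 of 6 library numbers. The means were 373 ± 26.1 and 338 ± 16.3 CPM, a log2 fold change of -0.14 (SE 0.061), which was not called. It was called lower with the replicate block (-0.14), without DMSO library 4 (-0.18), without EZH2i library 6 (-0.17) and without both libraries numbered 6 (-0.13). With library totals alone as the scale the log2 fold change was -0.08, also not called. Csk lies at chr9:57626646-57653631.

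**Figure D1:**
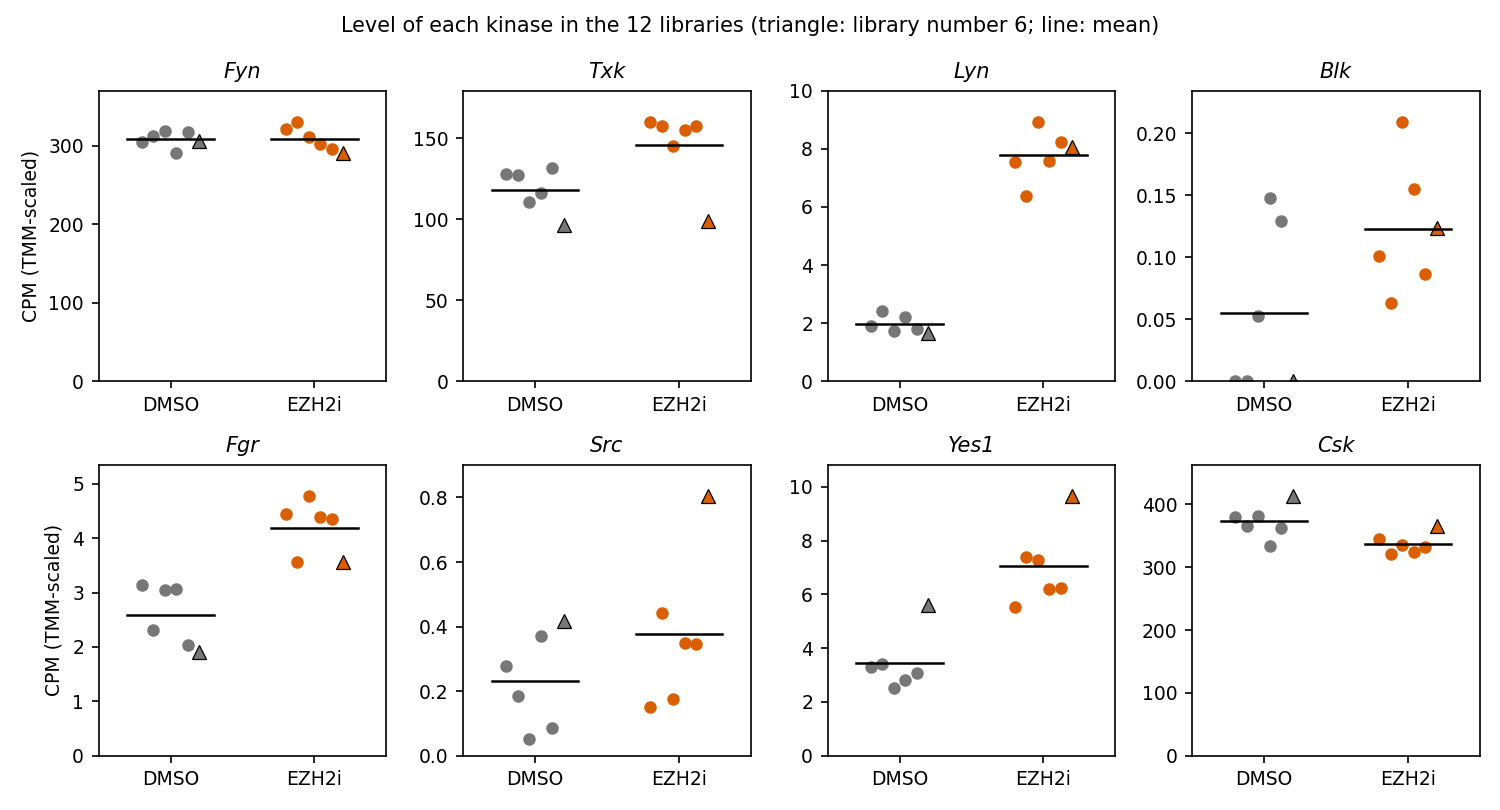
Level of each of the 8 kinases as TMM-scaled CPM (vertical axes, each from 0) in the 6 DMSO and 6 EZH2i libraries; points are libraries, triangles the libraries numbered 6 and lines the group means. Lyn and Fgr do not overlap between groups, the ranges of Fyn overlap, and in Txk EZH2i library 6 lies at 98.9 CPM with the controls.

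Levels of different genes were compared per length, as CPM per kilobase of annotated exons. In DMSO the order was Csk (99.8 ± 6.98 CPM per kilobase), Fyn (70.7 ± 2.45), Txk (10.8 ± 1.22), Fgr (0.669 ± 0.146), Lyn (0.481 ± 0.0736), Yes1 (0.460 ± 0.147), Src (0.0529 ± 0.0341) and Blk (0.0204 ± 0.0253). The libraries of Fgr, Lyn and Yes1 overlapped, as did those of Src and Blk, so their order among themselves is not settled. In EZH2i Lyn moved to the fourth place, at 1.91 ± 0.212 CPM per kilobase, with all its libraries above those of Fgr (1.08 ± 0.131) and below those of Txk (13.3 ± 2.15). Fgr and Yes1 (0.938 ± 0.195) overlapped in EZH2i. With the length of the longest transcript in place of all exons, Lyn kept the fourth place in EZH2i, and Yes1 stood above Lyn in DMSO and above Fgr in EZH2i.

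The rise left Lyn a minor kinase next to Fyn. Per kilobase, Lyn stood at 0.583% to 0.834% of the Fyn level in the DMSO libraries, with a median of 0.639%. In the EZH2i libraries it stood at 2.06% to 3.07%, with a median of 2.82%. Lyn, Yes1 and Fgr together stood at 1.89% to 2.58% of Fyn in DMSO and at 4.58% to 6.27% in EZH2i.

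**Figure D2:**
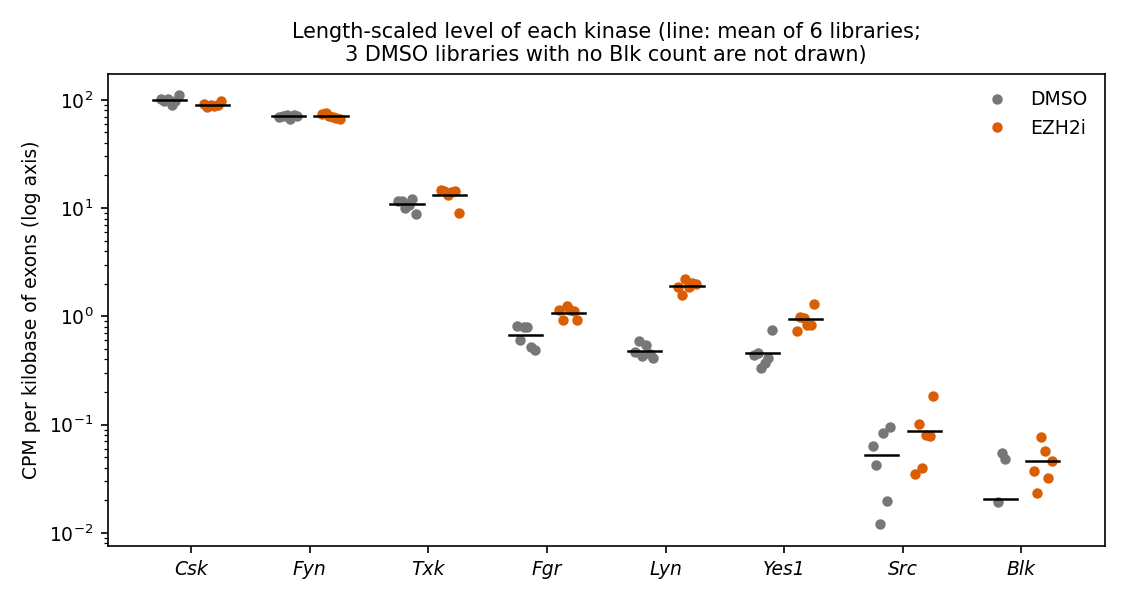
CPM per kilobase of exons (log axis) for each kinase, ordered by the DMSO mean; points are libraries, lines the means of 6, and the 3 DMSO libraries without a Blk count cannot be drawn on this axis. Csk, Fyn and Txk lie far above the rest in both groups, and Lyn rises from 0.481 to 1.91.

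Tested genes were divided by mean level into 4 bins of like size. The 3 members called higher all lay in the lowest bin (0.318 to 8.61 CPM), and Fyn, Txk and Csk in the highest (from 77.8 CPM). In the lowest bin 30.0% of all genes were called higher and 0.887% lower. In the highest bin 3.44% were called higher and 11.7% lower, with a median of -0.11. The split of the members by level is thus also a split of the whole table, and how much of the members' difference belongs to it was not tested.

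Promoter sequence was compared among the members because PRC2, the complex of EZH2, is known to sit on stretches rich in CG. RefSeq promoters of build GRCm38.p6, from 250 bases before to 50 after the start, were found for 6 of 8 members, with none for Lyn and Blk. Fgr (chr4:132973845-132974144) and Yes1 (chr5:32610921-32611220), which were called higher, are shown with Fyn (chr10:39369549-39369848), which was not. All 3 are on the plus strand, with each CG, the same on both strands, in capitals.
Fgr: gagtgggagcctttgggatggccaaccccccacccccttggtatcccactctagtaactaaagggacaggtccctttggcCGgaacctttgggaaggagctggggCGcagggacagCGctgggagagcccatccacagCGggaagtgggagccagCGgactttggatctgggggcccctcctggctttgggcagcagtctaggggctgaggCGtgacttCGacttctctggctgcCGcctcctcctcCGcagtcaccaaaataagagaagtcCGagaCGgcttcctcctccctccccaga
Yes1: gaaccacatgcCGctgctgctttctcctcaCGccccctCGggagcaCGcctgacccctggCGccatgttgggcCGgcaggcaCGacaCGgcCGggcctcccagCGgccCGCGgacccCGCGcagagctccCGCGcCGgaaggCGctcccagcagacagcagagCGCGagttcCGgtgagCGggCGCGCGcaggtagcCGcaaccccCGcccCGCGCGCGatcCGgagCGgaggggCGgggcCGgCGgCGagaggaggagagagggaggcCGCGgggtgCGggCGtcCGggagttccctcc
Fyn: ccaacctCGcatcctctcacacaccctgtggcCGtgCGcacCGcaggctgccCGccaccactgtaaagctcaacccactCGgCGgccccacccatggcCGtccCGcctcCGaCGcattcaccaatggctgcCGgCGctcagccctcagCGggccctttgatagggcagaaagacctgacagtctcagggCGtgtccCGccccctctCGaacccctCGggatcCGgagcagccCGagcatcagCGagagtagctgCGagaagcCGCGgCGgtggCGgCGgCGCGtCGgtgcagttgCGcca
The Fgr window held 11 CG, a number that 41.4% of the 32851 promoters reach, the Yes1 window 42 (3.03%) and the Fyn window 31 (10.6%). Src had 47, Csk 24 and 9 at its 2 starts, and Txk 4 at each of 2 starts. The median was 7 over all promoters and 21 over those of tested genes, and 94.6% of all held at least 1. Fgr and Yes1 fell on both sides of the median of tested genes, and so did the members that were not called. Lyn had no window, and a link between CG number and the differences was not tested. These counts describe the windows only.

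Outside the set, Lck, the main Src kinase of T cells, fell from 839 ± 64.1 to 659 ± 33.1 CPM (adjusted p = 0.00186 for a log2 difference of -0.35, edgeR's quasi-likelihood test, lower in 6 of 6 library numbers), with no overlap between the groups. Srms had 24 and 91 counts in DMSO and EZH2i, Ptk6 0 and 3, and Frk 0 in both, too few to test.

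Tec, the gene next to Txk on chromosome 5, stood at 29.9 ± 4.82 and 26.4 ± 2.47 CPM (adjusted p = 0.309 for a log2 difference of -0.18, edgeR). It was called lower with the replicate block (adjusted p = 0.0436), without DMSO library 6 (0.0395) and without both libraries numbered 6 (0.0138). Txk and Tec thus had fold changes of opposite sign, and the difference between them was not tested. Btk had 19 and 32 counts and Bmx 8 and 7.

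**Figure D3:**
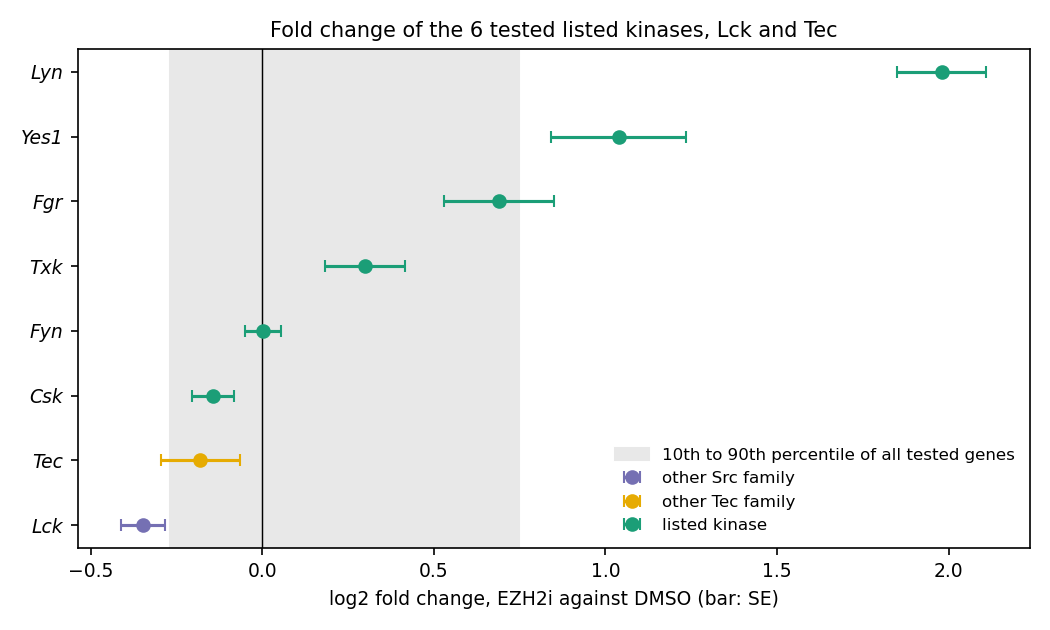
Log2 fold change of EZH2i against DMSO (horizontal axis, bars are SE) for the 6 tested members, Lck and Tec, with the 10th to 90th percentile of all tested genes shaded (-0.27 to 0.75). Lyn and Yes1 lie beyond the shaded band to the right, Lck below it, and the others within.

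Genes that work with these kinases were counted in 5 lists. Over these and the other family members, 71 genes were tested, 11 were called higher and 11 lower, and the median log2 difference was 0.02. Over all tested genes 13.3% were called higher and 6.05% lower, with a median of -0.01. The counts of each list below in the reported fit stand against these shares. With the replicate block the counts were 23 higher and 18 lower, where 2892 and 2849 of all 11727 tested genes were called. Without both libraries numbered 6 they were 23 and 16, where 2815 and 2455 of 11764 were called. DESeq2 called 1756 and 1125 of all 11727. The block and DESeq2 counts of each list stand against these numbers. For unadjusted p-values no count over all genes is given. The lists were drawn up with earlier results of these data known, and p-values are adjusted over all tested genes.

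Among 18 tested partners of Csk and other brakes on Src signalling, 2 rose and 3 fell, with a median of 0.13. Inpp5d, which encodes the lipid phosphatase SHIP-1, rose from 105 ± 6.13 to 133 ± 4.14 CPM (adjusted p = 0.000706). Ptpn6, which encodes SHP-1, the phosphatase that inhibitory receptors recruit after Lyn acts, fell from 372 ± 63.4 to 232 ± 24.3 CPM (adjusted p = 0.000943 for a log2 difference of -0.68). The adaptors Sit1 (-0.62, adjusted p = 0.00579) and Dok2 (-0.28, adjusted p = 0.0255) also fell. Dok2 was not called with upper-quartile scaling (adjusted p = 0.0702), library totals (0.0885), or without DMSO library 1 (0.0518), EZH2i library 4 (0.0727) or EZH2i library 5 (0.0562). With the block 7 rose and 5 fell. The Csk anchor Pag1 stood at 75.6 ± 5.30 and 85.0 ± 6.59 CPM, higher in 6 of 6 library numbers (adjusted p = 0.105). It was called higher with the block (adjusted p = 0.0283), upper-quartile scaling (0.0369), library totals (0.0325), without DMSO library 4 (0.0413) and without both libraries numbered 6 (0.0256).

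Among 6 tested phosphatases that open Src kinases, Ptprj (CD148) rose from 37.1 ± 4.62 to 56.2 ± 5.57 CPM (adjusted p = 0.000541 for a log2 difference of 0.60) and Ptpre fell from 8.04 ± 0.722 to 5.4 ± 0.619 CPM (-0.57, adjusted p = 0.00204), each without overlap. With the block 1 rose and 2 fell. Ptprc, which encodes CD45, was as high as 2187 ± 260 CPM in DMSO and 2186 ± 242 in EZH2i (adjusted p = 0.996).

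In proximal T cell receptor signalling 4 of 22 tested genes rose and 4 fell, with a median of -0.02. Syk, the B cell and myeloid counterpart of Zap70, rose from 0.702 ± 0.254 to 3.10 ± 0.880 CPM (adjusted p = 0.000145 for a log2 difference of 2.14), without overlap. Plcg2, the phospholipase C gamma of B cells, rose from 19.7 ± 8.50 to 38.3 ± 10.9 CPM (0.96, adjusted p = 0.0134), and the Lck adaptor Sh2d2a from 283 ± 37.0 to 408 ± 68.5 CPM (0.53, adjusted p = 0.00986). Themis, a T cell signalling protein, fell from 351 ± 36.6 to 279 ± 18 CPM (-0.33, adjusted p = 0.00726). With the block 6 rose and 5 fell. Zap70, the T cell kinase that acts directly after Lck, had 199 ± 15.4 CPM in DMSO and 211 ± 22.1 in EZH2i (adjusted p = 0.543).

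Of 12 tested partners of Fyn in the SLAM and adaptor pathway 0 rose and 2 fell. An unadjusted p under 0.05 was found for 2 in each direction, with no count over all genes to weigh them by. DESeq2 gave the same counts as edgeR. The receptor Cd226 fell from 94.6 ± 11.8 to 67.0 ± 6.58 CPM (adjusted p = 0.00209 for a log2 difference of -0.50), and the SLAM ligand Cd48 from 268 ± 50.6 to 190 ± 46.3 CPM (-0.49, adjusted p = 0.0374). Cd48 was not called with upper-quartile scaling, with library totals, or when any 1 of DMSO libraries 1, 2, 5 and 6 and EZH2i libraries 1 to 5 was left out, with adjusted p-values from 0.0525 to 0.0964. With the block 4 rose and 3 fell.

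Of 9 tested receptors and adaptors known to work with Lyn in B and myeloid cells 3 rose and 0 fell, with a median of 0.20. Unadjusted, 4 were higher and 1 lower, with no count over all genes to weigh them by. DESeq2 and the block each called 4 higher and 1 lower. Kit, the stem cell factor receptor, rose from 3.84 ± 0.750 to 31.4 ± 10.7 CPM (adjusted p = 1.88e-06 for a log2 difference of 3.04), without overlap. EZH2i library 6 held the highest Kit level, at 52.2 CPM, against 23.3 to 32.9 in the other EZH2i libraries. The inhibitory receptors Lilrb4a (0.63, adjusted p = 0.00574) and Cd72 (0.50, adjusted p = 0.0293) rose as well. Cd72 was not called when any 1 of DMSO libraries 1 and 5 and EZH2i libraries 1 to 5 was left out, with adjusted p-values from 0.0515 to 0.0690. The other 9 symbols in the tables, among them Blnk, Pirb, Siglecg and Fcgr2b, did not pass the filter, with at most 52 counts in a group (Tyrobp).

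**Figure D4:**
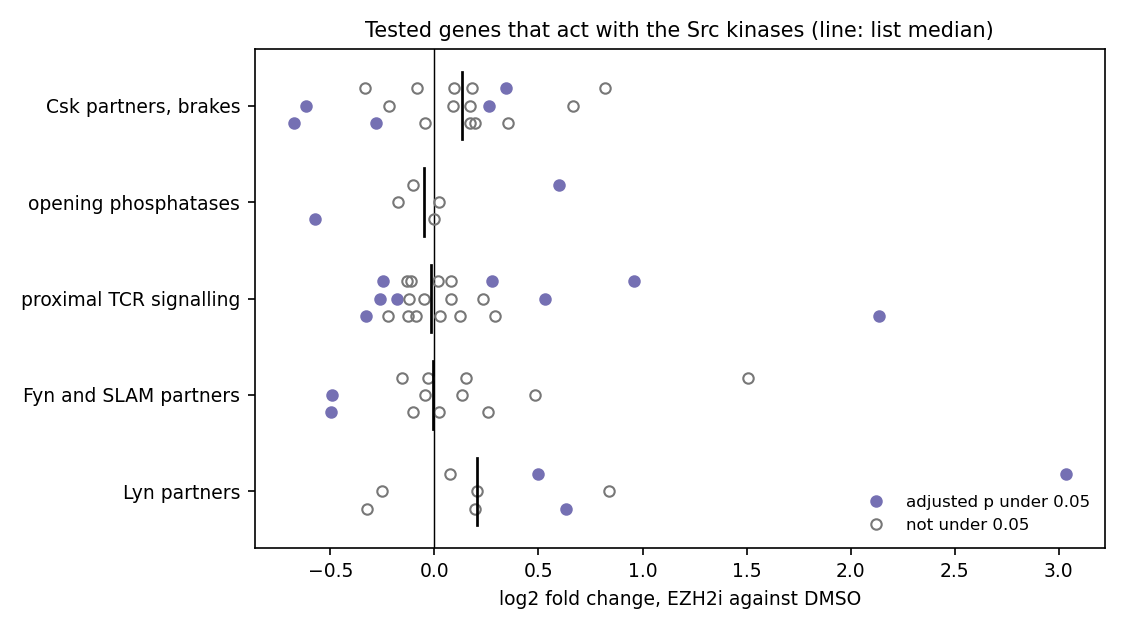
Log2 fold change of EZH2i against DMSO (horizontal axis) for the tested genes of 5 lists; filled points have an adjusted p under 0.05 and the line is the list median. Called genes lie on both sides of 0 in the first 3 lists, and Syk and Kit lie farthest to the right, at 2.14 and 3.04.

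Because Lyn, Fgr and Blk are kinases of other blood cells, markers of those cells were measured beside them. The 10 B cell markers summed to 20.01 to 29.6 CPM in DMSO and 16.4 to 25.6 in EZH2i, nearly all of it Cd79b and Bank1. The defining B cell genes were at or near 0: Ms4a1 had 3 counts summed over DMSO and 12 over EZH2i, and Pax5 3 and 1. Some others had more counts in EZH2i, with 20 and 39 for Cd79a, 4 and 20 for Cr2 and 0 and 14 for Blnk. The 12 myeloid markers summed to 4.35 to 10.9 CPM in DMSO and 6.44 to 18.5 in EZH2i, mostly Itgam and Cd68. Csf1r had 1 and 2 counts, Csf3r 4 and 3, and Fcgr1 0 in both groups. Other myeloid markers had more counts in EZH2i, with 2 and 20 for Cd14, 4 and 15 for Cybb and 28 and 48 for Lyz2. The myeloid sum had medians of 10.3 and 17.9 CPM, with Itgam higher and Cd68 at 4.21 ± 1.07 and 3.49 ± 1.16 CPM. Within number 6 the sum stood at 4.35 and 6.44 CPM, the lowest of each group, and Lyn at 1.67 and 8.05 CPM. The sum in EZH2i library 6 lay above that of DMSO library 6 and below the DMSO median. The part of the myeloid sum in the difference in Lyn was not tested.

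Single markers did move. Itgam, an integrin chain also found on activated T cells, rose from 4.75 ± 1.76 to 11.6 ± 3.69 CPM (adjusted p = 0.0112), higher in 6 of 6 library numbers. Within number 6 it stood at 1.67 and 4.40 CPM, the lowest of each group. Itgax (log2 fold change 1.91, adjusted p = 0.00726), Klrb1c (2.59, adjusted p = 8.77e-05) and Cpa3 (1.15, adjusted p = 0.0115), listed for dendritic, NK and mast cells, rose too. The other tested markers of these lists, Klre1 (-0.02), Klri2 (0.06) and Ms4a2 (-0.09), were not called. Untested ones went either way, with 32 and 94 counts for Zbtb46, 13 and 26 for Mcpt8, 30 and 32 for Fcer1a and 20 and 10 for Xcr1. The 6 dendritic cell markers summed to 0.179 to 1.69 CPM in DMSO and 1.3 to 3.77 in EZH2i, with medians of 0.948 and 2.92. The 5 mast cell and basophil markers summed to 1.31 to 2.58 and 1.95 to 4.19 CPM, with medians of 2.31 and 3.53. The 6 platelet and erythroid markers, with Hbb-bs and Hba-a1 at 0, summed to 0.476 to 2.70 and 1.39 to 3.67 CPM, with medians of 1.84 and 3.09. The sums of the 3 CD4 T cell markers had medians of 6.42 and 8.31 CPM. Most of this was Foxp3, with means of 6.02 and 7.82 CPM, higher in 6 of 6 library numbers and not called. Cd4 had 11 and 14 counts and Cd40lg 21 and 14. The 5 NK cell markers summed to 6.05 to 6.88 CPM in DMSO and 8.09 to 13.7 in EZH2i. Within that sum the mean of Klrb1c went from 0.852 to 5.10 CPM, and that of Klre1 from 3.43 to 3.39. The part of these sums in the members' differences was not tested either.

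The genes whose level followed Lyn most closely over the 12 libraries, among 9985 candidates of at least 2 CPM, were Serpinb9 (Pearson r = 0.989 of log2 CPM), Klhl5 (0.986), Ttc39c (0.984), Inppl1 (0.980) and Serpina3f (0.979). All 5 differ between the groups, and over deviations from the group means the same r values were 0.514, 0.553, 0.688, 0.324 and 0.575. For Fyn they were Gimap4 (0.920), Usp8 (0.910), Ube2d1 (0.905), Dmtf1 (0.896) and Rpl23 (0.889), with r of 0.890 to 0.920 within groups. These are descriptions over 12 points that share depth and library number, picked as the highest of many.

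**Figure D5:**
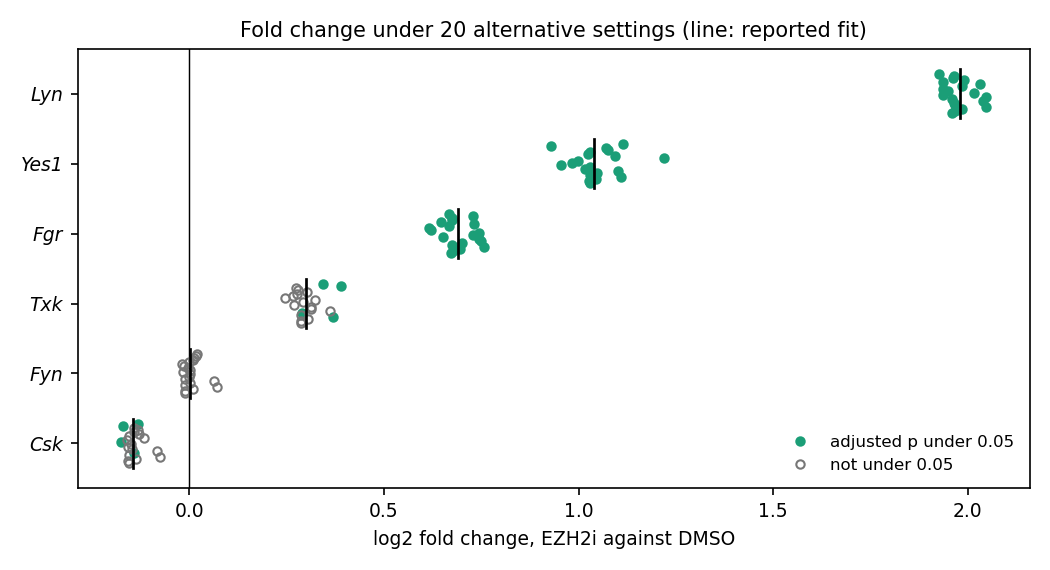
Log2 fold change of EZH2i against DMSO (horizontal axis) of the 6 tested members under 20 alternative settings; filled points have an adjusted p under 0.05 and lines are the reported values. Lyn runs from 1.92 to 2.05, Yes1 from 0.93 to 1.22 and Fgr from 0.62 to 0.76, Txk and Csk are called in 4 of 20 each, and Fyn in 0. The calls are a description, as this contrast helped to choose the members.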

How the data were processed

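Polyadenylated RNA of 12 libraries was sequenced as single-end reads from a stranded kit, per the labels' protocols. Each library has its own table of unnormalized counts by symbol, deposited by the authors. The submitters' processing notes name featureCounts, TopHat2 2.1.1, SAMtools 1.9, Trimmomatic 0.38 and FastQC 0.11.7, with build GRCm38 (mm10). For annotation, strand setting and multi-mapping reads, nothing is given in the sources used here.

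The test was run with edgeR 4.0.16 (R 4.3.3): filterByExpr at its defaults (11727 genes kept), TMM scaling, and the two-sided quasi-likelihood test on group alone, with Benjamini-Hochberg adjustment over all tested genes and a threshold of 0.05. The filter keeps a gene that only 1 group expresses. SE was obtained as |log2 fold change| over the root of F. Alternatives were DESeq2 1.42.0, other scalings and filters, a replicate block, and leaving out libraries. Log2 CPM for likeness used a prior count of 2. Gene positions and lengths are from GENCODE M21 and promoters from RefSeq (GRCm38.p6).

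The members and lists were chosen with earlier results of these data known. Named were all members, other family kinases (some withheld items are not reported here), from each list the up to 4 called genes that changed most, the 5 genes most like Lyn and Fyn, and, chosen after values were seen, Pag1, Ptprc, Zap70 and the markers that moved. The labels share replicate numbers without saying what they mean. Libraries that share a number deviated from the means of their groups together, with r of 0.213, 0.445, 0.286, 0.527, 0.317 and 0.847, all over 0.1. For numbers 1 and 5 the DMSO library was closer to an EZH2i library of another number. Whether the numbers are pairs is thus not settled. The reported fit leaves them out, and the replicate block is given as an alternative. Without number 6 the lowest r was 0.0371. Replicates differed by more than sampling noise (chi-square per degree of freedom at least 4.79).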

Additional observations from a re-analysis of the deposited data

Results flagged for a closer look

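Both of the values that stood apart came from libraries numbered 6. Txk was at 98.9 CPM in EZH2i library 6, against 145 to 160 CPM in the 5 other EZH2i libraries, a gap of 0.757 of the group's range. Yes1 was at 5.60 CPM in DMSO library 6, against 2.52 to 3.42 CPM in the 5 other DMSO libraries, a gap of 0.707 of the range. Both gaps exceed Dixon's 95% critical value for 6 libraries. Of the 16 groups looked at (8 kinases in both arms), chance alone gives such a value in about 1 in 20.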

How the results depend on the processing

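The direction of Lyn, Yes1, Fgr, Txk and Csk was the same in all 20 alternatives, and Lyn, Yes1 and Fgr were called higher in each. This contrast helped to choose the members and the alternatives share libraries, so these calls are a description only. Members called higher numbered 4 with library totals, with the replicate block and without both libraries numbered 6, Txk being added, and 3 to 4 when 1 library was left out. Members called lower numbered 0 to 1 when 1 library was left out (Csk, without DMSO library 4 or EZH2i library 6), and 1 (Csk) both with the replicate block and without both libraries numbered 6. Over all genes the calls went from 2266 to 5741 with the replicate block and to 5270 without both libraries numbered 6, and ran from 1732 to 4079 when 1 library was left out. Calls were 68.7% higher ones, and 83.8% with upper-quartile scaling, 85.4% with library totals, 50.4% with the block and 53.4% without both libraries numbered 6. List genes called higher went from 11 to 23 with the replicate block and to 23 without both libraries numbered 6, and ran from 9 to 17 when 1 library was left out. List genes called lower went from 11 to 7 with library totals and to 18 with the replicate block, and ran from 8 to 14 when 1 library was left out. The cause was not tested. The log2 fold change of Fyn was 0.06 with upper-quartile scaling and 0.07 with library totals, against 0.00 as reported. Depth limits Blk and Src, which have few counts.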
